A study of Rattus norvegicus with 15 samples.

Results

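The 5 Wistar arrays, of 15 in the series, were described on their own as the expression profile of normal rat jejunum. They were chosen by title, Wistar 1 to Wistar 5. The rats were male, unoperated and not diabetic, had free access to water and standard chow, and were age-matched to Goto-Kakizaki (GK) rats of the same study, a nonobese diabetic strain operated at 16 wk of age. Tissue was taken 14 wk after that surgery from overnight-fasted animals killed in the morning, as a 5 cm piece lying 21 to 26 cm beyond the ligament of Treitz, and total RNA of the piece was hybridised in a single colour (Cy3). GEO's labels call the tissue an intestinal segment and the methods place it in the upper small intestine. Its RNA mixes mucosa, muscle, nerve and immune cells, so that fewer cells of a type and less RNA per cell cannot be told apart.

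The jejunum is the main site of nutrient absorption. Its enterocytes digest sugars and peptides at the brush border, take up fatty acids, bind them with fatty acid binding proteins, rebuild triglyceride and export it with apolipoproteins in chylomicrons. Goblet cells secrete mucus, Paneth cells at the crypt base secrete defensins and lysozyme, and enteroendocrine cells release hormones into blood.

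Values are the quantile-normalized log2 signals deposited by the authors. A probe counted as detected where the scanner software called its signal well above background, and a gene was ranked by the mean log2 value of its brightest probe among those detected on all 5 arrays. Of 17338 named genes on the array, 12551 (72.4%) could be ranked, and 2950 (17%) were detected on none of the 5. Probe brightness depends on probe sequence as well as on RNA, so the order is one of signal and not of transcript number. Near the detection limit, the faintest ranked gene was Prm2 with a mean of 3.55, while Or10d1g, detected on 4 arrays, had a mean of 5.63 and was left out.

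Wistar 3 stood apart from the other arrays. Its 75th percentile of raw signal was 225, against 330.5 to 371 on the other 4, and it held the value farthest from the gene mean for 553 (63.7%) of the 868 genes with an SD of at least 0.5, which are 6.92% of ranked genes. It was the lowest array for 36.9% and the highest for 33.4% of ranked genes. Wistar 2 to Wistar 5 shared a slide, whereas Wistar 1 lay on another slide with 3 arrays of another group, so the slide and the sample of Wistar 1 cannot be told apart. Pearson correlations between the arrays over ranked genes lay between 0.982 and 0.995 for the 10 pairs, which is a correlation across genes and not across independent replicates.

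Genes of fat absorption headed the ranking. Apoa4, the apolipoprotein A-IV of chylomicrons, was the brightest gene, with a mean of 18.44 ± 0.07 (SD, n = 5). It read 18.47 on Wistar 1, 2, 3 and 5 and 18.33 on Wistar 4, the repeated value being the highest that quantile normalization assigns. Fabp1, the liver-type fatty acid binding protein, ranked 3rd with 18.13, 18.13, 18.01, 17.94 and 18.10 on Wistar 1 to Wistar 5. Fabp2, the intestinal type, ranked 4th with 18.04, 17.92, 17.92, 17.92 and 18.01. Apoa1, the main protein of high-density lipoprotein, ranked 12th and was lowest on Wistar 2 and Wistar 3, with 17.77, 17.54, 17.54, 17.80 and 17.92. Dgat1, which makes triglyceride, ranked 96th and was steady on its brightest probe, with a mean of 16.17 ± 0.02 (SD, n = 5). Its dimmer second probe read 13.95, 14.12, 13.43, 14.03 and 14.01 (SD 0.28), lowest on Wistar 3. These 5 genes were the members of the lipid absorption list among the 100 brightest. The list holds 0.183% of ranked genes, and 23 of its 24 measured members were ranked, with a median rank of 282. Below them came Acsl5, an acyl-CoA synthetase (rank 105), Apob, the structural protein of chylomicrons (129), and Mttp, which loads lipid onto it (361). Abcg8, a sterol exporter, lay far lower at rank 7460, and Clps, pancreatic colipase, was detected on no array.

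The promoters of the 3 brightest absorptive genes, Apoa4, Fabp1 and Fabp2, are shown as the sequence next to their starts. They are RefSeq sequences of build GRCr8, the 250 bases before the annotated start, 5′ to 3′ on the strand of the gene (plus for each), and capitals mark the letters TATAAA of a TATA box, searched on both strands.
Apoa4 (chr8:55435529-55435778): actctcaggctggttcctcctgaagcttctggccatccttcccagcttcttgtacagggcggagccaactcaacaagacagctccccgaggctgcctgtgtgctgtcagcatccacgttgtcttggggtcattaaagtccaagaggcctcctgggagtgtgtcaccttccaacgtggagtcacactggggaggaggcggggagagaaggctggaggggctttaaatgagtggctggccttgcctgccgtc
Fabp1 (chr4:104749090-104749339): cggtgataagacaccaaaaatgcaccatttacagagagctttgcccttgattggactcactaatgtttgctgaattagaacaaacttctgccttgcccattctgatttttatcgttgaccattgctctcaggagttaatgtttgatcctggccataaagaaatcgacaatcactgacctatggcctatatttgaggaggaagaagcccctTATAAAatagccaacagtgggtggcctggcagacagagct
Fabp2 (chr2:213724379-213724628): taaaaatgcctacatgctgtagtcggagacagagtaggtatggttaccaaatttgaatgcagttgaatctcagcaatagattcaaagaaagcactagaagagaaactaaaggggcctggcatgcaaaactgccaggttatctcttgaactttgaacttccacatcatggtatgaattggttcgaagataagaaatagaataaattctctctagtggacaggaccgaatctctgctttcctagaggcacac
In Fabp1 the match began 40 bases before the start, and the windows of Apoa4 and Fabp2 did not hold these letters. Of the 100 brightest genes, 69 had a promoter in the table and 11 of them (15.9%) held TATAAA, against 13.1% of all 27457 promoters and 7.79% of the 9751 promoters of ranked genes. Among the 31 bright ribosomal protein genes with a promoter the share was 9.68%, and among the 38 other bright genes it was 21.1%.

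The translation machinery filled the largest part of the top of the ranking among the lists counted. The 100 brightest genes are 0.797% of those ranked, and 40 of them came from the list of ribosomal proteins and translation factors, which holds 0.773% of all ranked genes. Rplp1, an acidic protein of the large subunit stalk, ranked 2nd with 18.11 ± 0.07 (SD, n = 5), followed by Rps6 at rank 7, Rpl8 at rank 9, Rps23 at rank 11 and Rps16 at rank 14. Rps28, Tpt1 (translationally controlled tumor protein), Rpl37a, Rps2, Rpl41 and Rpl37l1 (named Rpl37 in the file) also stood among the 30 brightest. Ribosomal proteins have many near-identical copies in the genome, so a probe may read several of them. The 97 ranked members had a median rank of 135 and a median SD of 0.09. Rps26, a small subunit protein, was an exception, at rank 7876 with 6.49, 5.90, 8.06, 7.65 and 8.09 on Wistar 1 to Wistar 5. It was low on Wistar 1 and Wistar 2, with no overlap with the other 3 arrays.

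Mitochondrial respiration genes followed. From the oxidative phosphorylation list, 0.629% of ranked genes, 11 members lay among the 100 brightest, led by Cox6a1, a cytochrome c oxidase subunit, at rank 8 with 17.79 ± 0.04 (SD, n = 5). Atp5me and Atp5mc2, subunits of the ATP synthase, ranked 28th and 43rd. Of the 83 measured members 79 were ranked, with a median rank of 320. Cox8b was detected on no array. Ndufs4, a complex I subunit, was faint at rank 11918, with 4.92, 4.57, 4.11, 5.35 and 4.06 in array order. Housekeeping genes gave 7 of the 100, from a list with 21 of the 12551 ranked genes. Among them were B2m at rank 13, Actb at rank 18 and Gapdh at rank 79. In all, 76 of the 100 brightest genes belonged to a list, against 5.47% of ranked genes. The lists were chosen with earlier results of these data known, so this count depends on that choice and was not tested. The 100 brightest genes carried 31.3% to 32.2% of the summed linear signal of ranked genes in each array, and ribosomal proteins carried 16.6% to 17.4%.

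Among the other genes of the 100 brightest, Guca2a and Guca2b, the peptides guanylin and uroguanylin that control salt and water secretion, ranked 15th and 31st. Guca2a read 17.60, 17.46, 17.84, 17.47 and 17.68, highest on Wistar 3. Guca2b read 17.37, 17.25, 16.94, 17.25 and 17.34, lowest on Wistar 3. The Paneth cell defensins Defa24 and Defa6 ranked 17th and 24th, and a further defensin, RatNP-3b, ranked 69th. RatNP-3b read 16.38, 16.48, 17.12, 16.37 and 16.46, and Defa6 read 17.27, 17.43, 17.89, 17.20 and 17.27. Both were highest on Wistar 3, above the other 4 arrays, and their SDs fell to 0.06 and 0.10 without it. Defensin genes are near-identical copies, and their probes may share targets. The goblet cell products Tff3, a trefoil peptide, and Zg16, a mucus lectin, ranked 22nd and 46th. Muc2, the main gel-forming mucin, ranked 4397th on its probe with a mean of 9.49.

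Other named genes among the 30 brightest were Krt20, the keratin of differentiated enterocytes (rank 16, 17.58 ± 0.16, lowest on Wistar 3), Ftl1, the iron-storing ferritin light chain (rank 27), and Dnase1, a secreted DNA-cutting enzyme (rank 6). Dnase1 read 17.94, 18.08, 18.04, 17.79 and 17.84. LOC683399, described on the array as like an immunoglobulin kappa protein, ranked 10th, and LOC257642, described as an rRNA promoter binding protein, ranked 19th. LOC310926 (rank 5) and LOC691259 (rank 29) are hypothetical proteins. Cdhr5 and Lgals4, an intermicrovillar cadherin and an epithelial galectin, ranked 61st and 70th. The 24 genes among the 100 brightest that belonged to no list also held Crip1, a zinc-binding LIM protein (rank 38), Mgst3, a microsomal glutathione transferase (47), Lgals3, a galectin (50), Cst3, the protease inhibitor cystatin C (72), Tkt, the transketolase of the pentose phosphate pathway (83), and Gda, guanine deaminase (98). Neighbours in this order were close: of 29 neighbouring pairs among the 30 brightest genes, 3 kept the same order on all 5 arrays. Of the 100 brightest probes of any kind, 27 carried no gene name here.

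**Figure D1:**
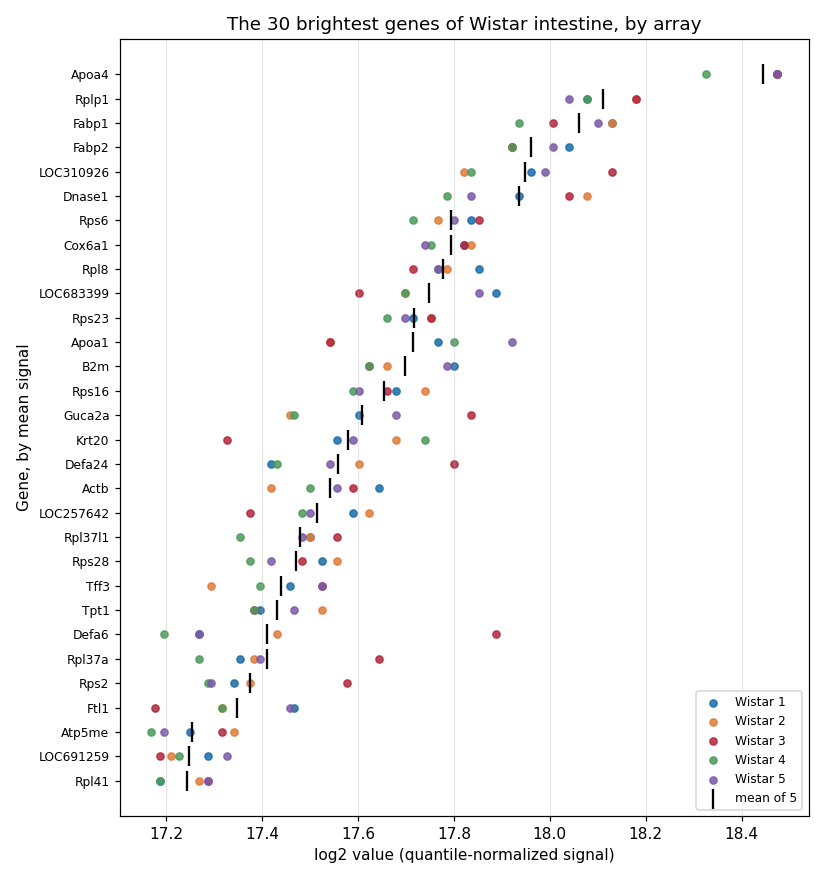
Log2 value (x axis, quantile-normalized signal) of the 30 brightest genes (y axis) on each of the 5 Wistar arrays, as coloured points, with the mean as a bar. Apoa4 leads at 18.44, and points of neighbouring genes overlap, as 3 of 29 neighbouring pairs kept their order on all 5 arrays.

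Quantile normalization gives the same set of values to every array. Among the 30 brightest genes, the median SD was 0.09 on the deposited scale and 0.24 when raw signals were set against the 75th percentile of each array, where all 30 were highest on Wistar 3. Without Wistar 3 the median SDs were 0.0752 and 0.0780. On that scale Apoa4 stayed first.

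Brush border enzymes, which cut sugars and peptides at the enterocyte surface, gave no member among the 100 brightest. Ranked were 18 of 19 measured members, against 72.4% of all named genes. Alpi, intestinal alkaline phosphatase, was the brightest at rank 126, followed by the peptidases Dpp4 (245) and Anpep (247). Si, sucrase-isomaltase, ranked 369th with 14.46, 14.42, 14.29, 14.60 and 14.70. Lct, lactase, ranked 2350th and read 11.42, 11.57, 9.90, 11.68 and 11.30. Lactase was low on Wistar 3, yet its dimmer second probe read 9.74, 9.95, 9.71, 9.51 and 9.68 and showed no such drop. Anpep was also low on Wistar 3, with 15.43, 15.31, 13.88, 15.49 and 15.43, and its much dimmer second probe was lowest there too, with 8.07, 8.21, 7.70, 8.20 and 8.21. Tmprss15, enteropeptidase, which activates trypsin, read 8.89, 9.09, 7.94, 10.10 and 9.46. Across the list 15 of 18 ranked members were lowest on Wistar 3, against 36.9% of all ranked genes, and the list's mean difference from its gene means was -0.46 there. The lower raw signal of that array moved with this, and its part in the result was not tested. Folh1, the folate hydrolase of the brush border, was detected on no array.

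All 22 measured nutrient transporters were ranked, against 72.4% of all named genes, and none was among the 100 brightest. Slc39a4, a zinc importer, led at rank 192, followed by the peptide transporter Slc15a1 at rank 233 and the dicarboxylate transporter Slc13a2 at rank 271. Slc5a1, the sodium-glucose cotransporter SGLT1, ranked 434th with 14.14, 14.19, 14.47, 14.22 and 14.14, highest on Wistar 3. The hexose carriers Slc2a5, for fructose, and Slc2a2 ranked 654th and 781st. Slc34a2, a phosphate transporter, was near the detection limit at rank 11282, with 4.51, 6.67, 5.06, 4.39 and 4.66. Of metal and vitamin genes, Ftl1 and Fth1 (rank 90) were among the 100 brightest, and Mt1, a metallothionein, ranked 120th. With the median over its probes in place of the brightest probe, Ftl1 moved from rank 27 to rank 127. Cyp24a1, which degrades vitamin D, was detected on no array, and the calcium channel Trpv6 on 1.

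Regional markers were read to check the label. Gata4, a transcription factor of proximal small intestine, ranked 2115th with 11.40 ± 0.20 (SD, n = 5), and Cdx2, of the whole intestine, ranked 703rd with 13.50 ± 0.17. The ileal markers Fabp6, a bile acid binding protein, and Slc10a2, the bile acid importer, were detected but lay at ranks 7503 and 8441. Fabp6 read 7.07, 7.57, 8.24, 6.90 and 7.67, and Slc10a2 read 6.23, 7.18, 6.74, 6.82 and 7.49. Fgf19, the gene of the ileal hormone called Fgf15 in rodents, was detected on no array. The colonic factors Hoxb13 and Hoxd13 were detected on none, while Slc26a3 (rank 2831) and Aqp4 (rank 3255) of the colon list were present. Of the 11 measured ileum genes 10 were ranked, and some were bright. Cubn, the vitamin B12 receptor, ranked 997th with 13.11, 12.38, 12.45, 12.75 and 13.63. Slc51a and Slc51b, the subunits of the basolateral bile acid exporter, ranked 1241st and 1553rd, and Slc51b read 11.74, 11.98, 12.53, 11.88 and 12.11. Nr0b2, a bile acid-responsive repressor, read 12.63, 11.01, 11.82, 12.35 and 11.32. Of 10 measured colon genes 7 (70%) were ranked, against 72.4% of all named genes.

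Gastric, pancreatic, hepatic and skeletal muscle genes were mostly faint. From the stomach list, Gkn2, Atp4a (the proton pump) and Cblif (intrinsic factor) were detected on no array, and 8 of 14 measured members were ranked, the brightest being Ghrl, ghrelin, at rank 2855. From the pancreas list, Cpb1, Cela3b, Pnlip, Pnliprp1 and Clps were detected on none, and 8 of 16 were ranked, led by Cela1 and Ctrb1. From the liver list, Cyp7a1, the first enzyme of bile acid synthesis, Tat and Apoh were detected on none, while the urea cycle gene Otc ranked 1469th. The skeletal muscle myosins Myh1, Myh2 and Myh4 were also detected on none. Over all lists, 37 of 751 measured genes (4.93%) were undetected on all 5 arrays, against 17% of all named genes. Ranked were 686 (91.3%), against 72.4% of all named genes.

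Marker genes for cell types of the whole wall were read in the same arrays. Of the hormone genes Gip, glucose-dependent insulinotropic peptide, was the brightest at rank 287, and read 14.76, 14.83, 15.18, 14.71 and 14.90. Chgb, a secretory granule protein, and Gcg, the gene of glucagon-like peptides, ranked 611th and 878th, and all 19 measured enteroendocrine genes were ranked. Smooth muscle was marked by Tpm2, a tropomyosin (rank 191), Myl9, a myosin light chain (229), and Actg2, gut smooth muscle actin (768), with all 12 measured genes ranked. Among immune genes, Cd74, the invariant chain of MHC class II, had a mean of 15.71 ± 0.09 (SD, n = 5), and C1qb, a complement subunit of macrophages, and Ccl5, a T cell chemokine, ranked 312th and 497th. For T and NK cells 14 of 16 immune list members were ranked, among them Cd7 (832) and Cd3g, a T cell receptor chain (1263). For myeloid cells 12 of 14 were ranked. Of all named genes 72.4% were ranked. Mast cells and eosinophils, with 10 of 13 (76.9%), and B and plasma cells, with 6 of 9 (66.7%), lay near this share. Pou2af1 led the B and plasma cell list at rank 2965, and its Jchain and Igha had no named probe. LOC683399, the immunoglobulin kappa-like gene at rank 10, was not on that list. The B cell genes Ms4a1 and Cr2, the T and NK cell gene Cd2, the eosinophil genes Epx and Prg3, and the mast cell protease Mcpt4 were detected on no array. The plasma cell gene Tnfrsf17 was ranked 4617th. Vip, a neuropeptide, led the neuron and glia list at rank 1565, and Nos1 and S100b were detected on none. The vascular genes Prox1 and Tek, the crypt gene Tnfrsf19 and the defensin Defa5 were likewise undetected. Lgr5, the stem cell receptor, was detected on all 5 arrays with a mean of 5.81 at rank 10142. Undetected were also Foxa1, a transcription factor, Sult1c3, a sulfotransferase, and the interferon-induced genes Ifit1 and Mx2.

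Further functions and cell types were read by the same lists. Their counts of ranked members, here and below, stand beside 72.4% of all named genes and were not tested. Among xenobiotic enzymes, which were ranked in 32 of 36 measured members, Cyp4f1, a fatty acid hydroxylase, and Gstp1, a glutathione transferase, ranked 74th and 80th, and Cyp3a9, a drug-oxidising cytochrome, ranked 121st with 16.13, 15.72, 15.50, 16.16 and 16.45. Among regional transcription factors, 24 of 26 were ranked, led by Creb3l3, a membrane-bound factor of intestine and liver, at rank 131. Fasting and PPAR-alpha target genes were ranked in 17 of 18 members, among them Acadm, of mitochondrial fatty acid oxidation, at rank 386. Acadm read 14.66, 14.45, 13.77, 14.70 and 14.62 and was lowest on Wistar 3. All 24 ion and water transport genes were ranked, with the sodium pump subunit Atp1b1 at rank 55 and the carbonic anhydrase Car4 at rank 352.

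Cholesterol synthesis was ranked in 22 of 23 members, led by Msmo1, a sterol oxidase, at rank 356, which read 14.19, 15.21, 14.36, 14.59 and 14.43. Insig1, the sterol-regulated retention protein, ranked 469th and Fdps, which makes farnesyl diphosphate, 894th. All 15 clock genes were ranked, and Dbp, a clock output factor, led with 12.06, 12.75, 12.79, 12.16 and 11.88, higher on Wistar 2 and 3 than on the others. Interferon-stimulated genes were ranked in 18 of 21 members, with Oas1a at rank 662 and the immunoproteasome subunit Psmb9 at rank 722, and Isg15, a ubiquitin-like protein, read 13.62, 12.99, 12.55, 13.51 and 13.82. All 18 genes of ER stress and heat shock were ranked, led by the chaperones Hspa5 (rank 390) and Hsp90aa1 (486) and by Atf4 (539), a stress transcription factor. The immediate early list was led by Ier2 at rank 738.

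Of the Paneth and antimicrobial list 13 of 14 were ranked, with the lysozyme Lyz2 at rank 139 and the phospholipase Pla2g2a at rank 306, and Reg3b, an antimicrobial lectin, read 11.58, 13.33, 13.88, 13.55 and 13.14, lowest on Wistar 1. The goblet cell gene Clca1 ranked 186th. All 6 tuft cell genes were detected but modest, the brightest being Ptgs1 at rank 4041, and Dclk1, a defining tuft cell kinase, read 7.36, 7.39, 6.76, 7.73 and 7.20. Smoc2, at rank 841, led the crypt stem cell list, of which 11 of 13 were ranked. All 15 proliferation genes were ranked, with Cdk1 at rank 1521. The fibroblast and matrix list was ranked in all 12 members, led by the proteoglycan Dcn (rank 978) and by Sparc (1105). Of 4 genes of the interstitial cells of Cajal, the gut pacemakers, Etv1 led at rank 4967 and the defining receptor Kit lay at rank 10519. Kdr, a vascular growth factor receptor, led the endothelium list at rank 2053. Mcpt1, a mast cell protease, ranked 1483rd with 12.23, 11.66, 12.58, 11.84 and 12.36. The blood list, read for red cells in the tissue, was led by Hbb, beta globin, at rank 4581 with 9.75, 9.07, 9.97, 8.70 and 9.35. Of 8 skeletal muscle genes 5 (62.5%) were ranked, against 72.4% of all named genes, the brightest being Ckm at rank 7048.

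**Figure D2:**
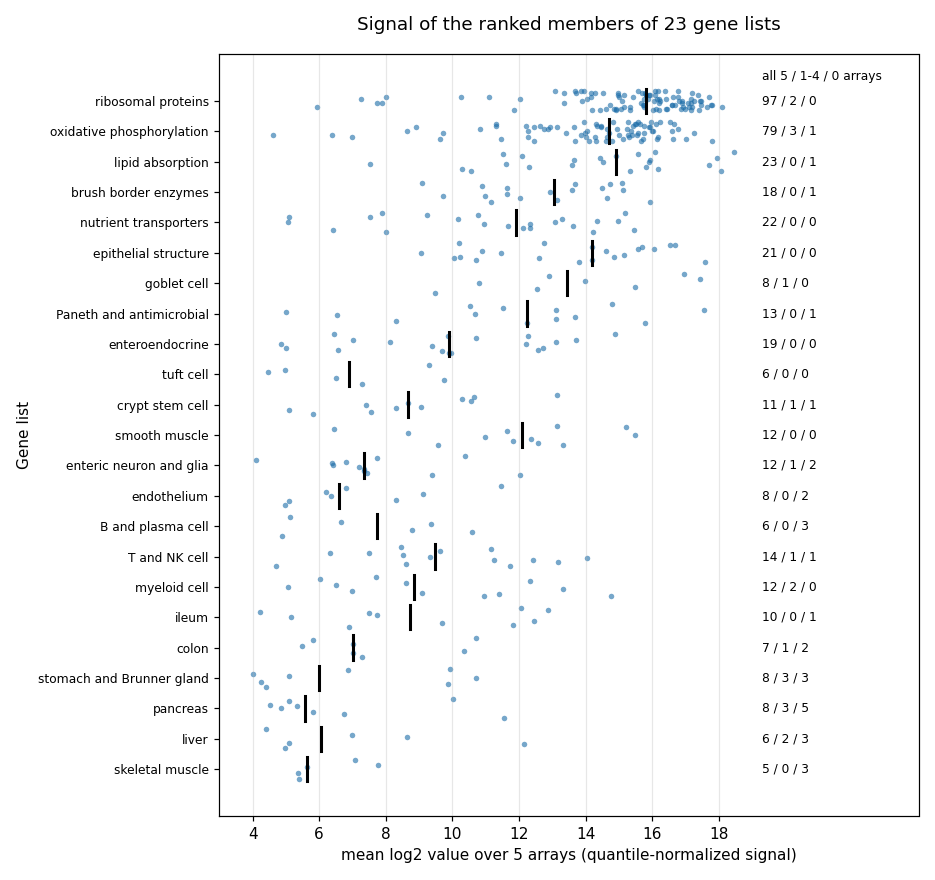
Mean log2 value over the 5 Wistar arrays (x axis) of each ranked member of 23 gene lists (y axis), with the list median as a bar and, at the right, the members detected on all 5, on 1 to 4 and on 0 arrays. Ribosomal proteins have the highest median at 15.83, and the pancreas list has the lowest at 5.57.

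The spread between arrays was small for most genes. The median SD over 5 arrays was 0.21, with quartiles of 0.13 and 0.31, and 63 of 12551 genes (0.502%) reached an SD of 1. Of the 263 probes with 10 repeat spots, 208 to 222 were detected on an array, and their median SD within it was 0.0674 to 0.0709. The 206 detected on all 5 arrays had a median SD of 0.217 between arrays. The first SD is of single spots before normalization, and the second is of the deposited normalized values. The SD between arrays holds rat, tissue piece, labelling and array together. On the deposited scale it fell with signal, from a median of 0.28 for genes with a mean under 6 to 0.09 for those of at least 16. Quantile normalization gives the same set of values to every array. With the 75th percentile in its place, the median SD was 0.24 for the 30 brightest genes and 0.21 for all ranked genes. Without Wistar 3 the 30 brightest had a median SD of 0.0780 on that scale. The 5 steadiest genes, Hipk1, Mto1, Chmp5, Trip12 and Arel1, had an SD of 0.01 each. Dimmer second probes of Arel1 and Mto1 had an SD of 0.23 each, above the median of all ranked genes. With a background correction that adds an offset of 50 (normexp), 11 genes in place of 63 reached an SD of 1, and 8 of the 30 most variable genes described here did.

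**Figure D3:**
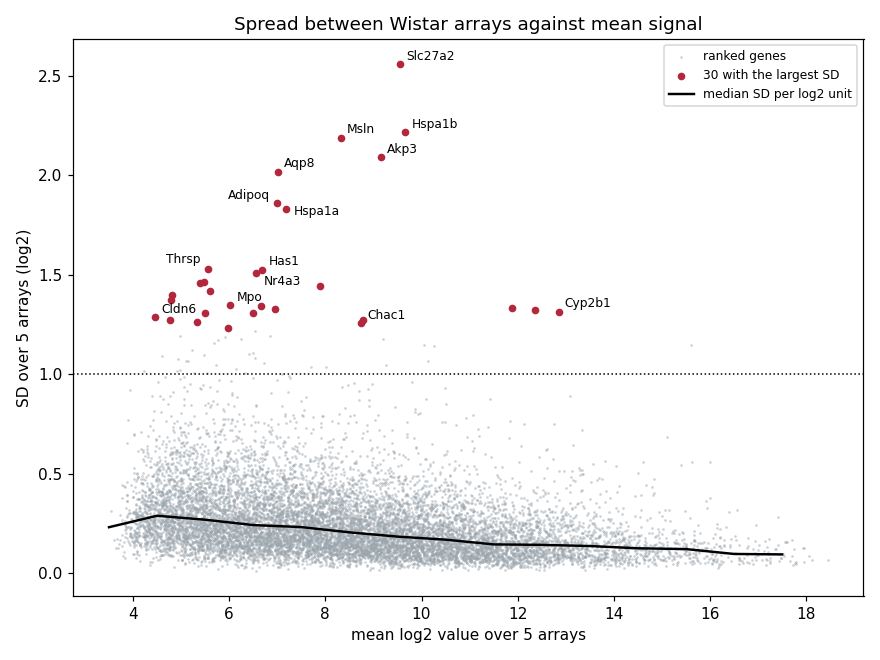
SD over the 5 Wistar arrays (y axis, log2) against mean log2 value (x axis) for the 12551 ranked genes in grey, the 30 with the largest SD in red and the median SD per log2 unit as a line. The dotted line marks an SD of 1, and 21 of the 30 red points have a mean under 8.

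The gene with the largest SD was Slc27a2, a very-long-chain fatty acid ligase, which read 10.67, 7.41, 6.24, 11.87 and 11.55 (SD 2.56). It was high on Wistar 1, 4 and 5 and low on Wistar 2 and 3, with a gap of 3.26 between them. A dimmer second probe, detected on 4 arrays, read 8.14, 4.87, 2.88, 9.32 and 9.05. The Cyp2b family holds cytochromes P450 that oxidise drugs and are known for induction by phenobarbital. It was lowest on Wistar 2 in all 6 measured members, against 20.3% of all ranked genes. This list was chosen after values were seen, and Cyp2b1, Cyp2b12 and Cyp2b21 were among the most variable genes. The count therefore partly restates the values that picked the list, and it was not tested. Probes of near-copy members may share targets, so the 6 members are not independent. Cyp2b2, the brightest at rank 171, read 16.59, 13.84, 15.14, 15.86 and 16.56. Its 3 other probes, all detected on every array, were also lowest on Wistar 2. Cyp2b1 read 13.99, 11.17, 11.75, 13.33 and 14.00. Cyp2b21 read 13.46, 10.56, 11.38, 12.84 and 13.54, and Cyp2b12 read 13.02, 10.10, 10.88, 12.30 and 13.10. In Cyp2b1, Cyp2b2, Cyp2b12 and Cyp2b21, Wistar 1, 4 and 5 lay above Wistar 2 and 3 without overlap. Cyp2b15 read 10.87, 8.33, 10.25, 10.25 and 10.98, and the faint Cyp2b3 read 6.32, 5.63, 5.66, 6.05 and 6.24. Their probes lie in a cluster on chromosome 1 of build rn4, from the Cyp2b3 probe, which starts at 81185388, to the Cyp2b15 probe, which ends at 81872090.

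The promoters of Cyp2b1 and Cyp2b2 are shown because these neighbours moved together and are near copies, so that their probes may share targets. They are RefSeq sequences of GRCr8, 250 bases before the start on the plus strand, and capitals mark the longest run of bases that both hold.
Cyp2b1 (chr1:90645869-90646118): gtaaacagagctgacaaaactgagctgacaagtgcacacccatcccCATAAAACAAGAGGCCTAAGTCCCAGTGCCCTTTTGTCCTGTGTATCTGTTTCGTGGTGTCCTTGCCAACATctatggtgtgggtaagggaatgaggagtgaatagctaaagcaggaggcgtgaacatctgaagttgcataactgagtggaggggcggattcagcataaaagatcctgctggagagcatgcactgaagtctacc
Cyp2b2 (chr1:90722031-90722280): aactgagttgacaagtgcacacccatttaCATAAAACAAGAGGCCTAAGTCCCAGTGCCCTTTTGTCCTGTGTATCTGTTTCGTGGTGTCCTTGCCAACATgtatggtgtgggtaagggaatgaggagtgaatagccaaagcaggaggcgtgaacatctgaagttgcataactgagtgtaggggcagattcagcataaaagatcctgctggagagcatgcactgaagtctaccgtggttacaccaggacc
The shared run was 72 bases long. With the windows shifted by 17 bases, 225 of 233 bases (96.6%) were identical.

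A second set followed another order of arrays. Hspa1b, an inducible heat shock protein 70, read 10.99, 11.31, 11.43, 7.95 and 6.64, and the near-identical Hspa1a read 8.62, 8.89, 7.85, 5.83 and 4.70. Both were high on Wistar 1 to 3 and low on Wistar 4 and 5, without overlap. Nr4a3, an immediate early nuclear receptor, read 7.11, 7.91, 7.69, 5.73 and 4.33. Has1, which makes hyaluronan, read 6.85, 7.95, 8.02, 6.35 and 4.28. The chemokine Ccl2 read 9.33, 9.94, 9.80, 7.34 and 7.46, Cxcl1 read 6.996, 7.74, 7.39, 4.56 and 5.80, and Ccl7, a monocyte chemokine, read 6.52, 6.78, 6.15, 4.88 and 4.07. In each of these the values on Wistar 1, 2 and 3 lay above those on Wistar 4 and 5. LOC681908, a hypothetical protein, read 6.07, 5.86, 7.17, 4.39 and 3.95, with the same split. Of the 2 other Nr4a3 probes the brighter read 6.69, 7.78, 8.65, 5.44 and 4.04, and the other Hspa1b probe was detected on no array. Medag, a gene of fat cell development, was low on Wistar 5 alone, with 7.33, 7.65, 7.91, 7.27 and 4.62. Egr1, an immediate early transcription factor, read 8.89, 10.26, 10.49, 8.24 and 8.44, and Nr4a1, a relative of Nr4a3, read 9.33, 10.57, 11.85, 9.40 and 9.15. These 2 were high on Wistar 2 and 3, with Wistar 1 close to the low arrays. Of the 15 ranked immediate early genes, 14 were highest on Wistar 2 or 3, the arrays that were highest for 22.8% and 33.4% of all ranked genes, and there the list lay on average 0.48 and 0.52 above its gene means.

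Chac1, a glutathione-degrading gene of the integrated stress response, read 7.73, 10.90, 8.74, 8.16 and 8.20 and was high on Wistar 2. Its second probe, detected on 2 arrays, read 3.09, 6.39, 3.51, 3.49 and 3.09. In the cholesterol synthesis list, which the sterol-regulated factor SREBP2 controls, 16 of 22 ranked members were highest on Wistar 2, against 22.8% of all ranked genes.

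Another set was high on Wistar 1. Adipoq, the fat cell hormone adiponectin, read 10.08, 7.13, 5.88, 6.64 and 5.28. Thrsp, a lipogenic gene of fat, read 8.18, 5.39, 4.40, 5.36 and 4.52, and Lpl, lipoprotein lipase, read 8.53, 6.84, 6.08, 6.17 and 6.04. Serpina3n, a protease inhibitor, read 10.32, 8.01, 7.26, 7.09 and 6.72, and LOC100361007, an uncharacterized protein, read 7.95, 5.74, 4.54, 5.29 and 4.48. All 5 were highest on Wistar 1. A list with 16 measured fat cell genes, chosen after these values were seen, had 11 ranked members. Of these, 8 were highest on Wistar 1, against 17.0% of all ranked genes, and there the list lay on average 1.02 above its gene means. The list holds Adipoq, Thrsp and Lpl, so its count and shift partly restate the values that picked it, and they were not tested. Leptin (Lep) was detected on no array. Smooth muscle genes were also highest there, in 11 of 12 ranked members against the same 17.0%, with a mean shift of 0.40. Tpm2, for instance, read 16.02, 15.26, 15.31, 15.32 and 15.44, and Actg2 had its highest value, 14.01, on Wistar 1. Wistar 1 is the array on the other slide, and the part of the slide in this result was not tested.

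Msln, mesothelin of the serosal lining, read 9.41, 4.94, 7.48, 10.55 and 9.25, and Upk1b, a uroplakin also found there, read 8.20, 6.43, 7.01, 9.10 and 7.76. Both were highest on Wistar 4 and lowest on Wistar 2. The 2 other ranked members of the mesothelium list, Has1 and Cldn15, a claudin, were instead highest on Wistar 3 and Wistar 2 and lowest on Wistar 5. Akp3, an alkaline phosphatase related to Alpi, read 9.73, 9.80, 5.995, 11.68 and 8.53, highest on Wistar 4 and lowest on Wistar 3 in both of its probes. Aqp8, a water channel, read 8.20, 8.68, 5.04, 8.54 and 4.59, low on Wistar 3 and 5 without overlap with the others. Cfb, complement factor B, read 7.27, 5.47, 5.21, 8.48 and 6.89, low on Wistar 2 and 3.

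**Figure D4:**
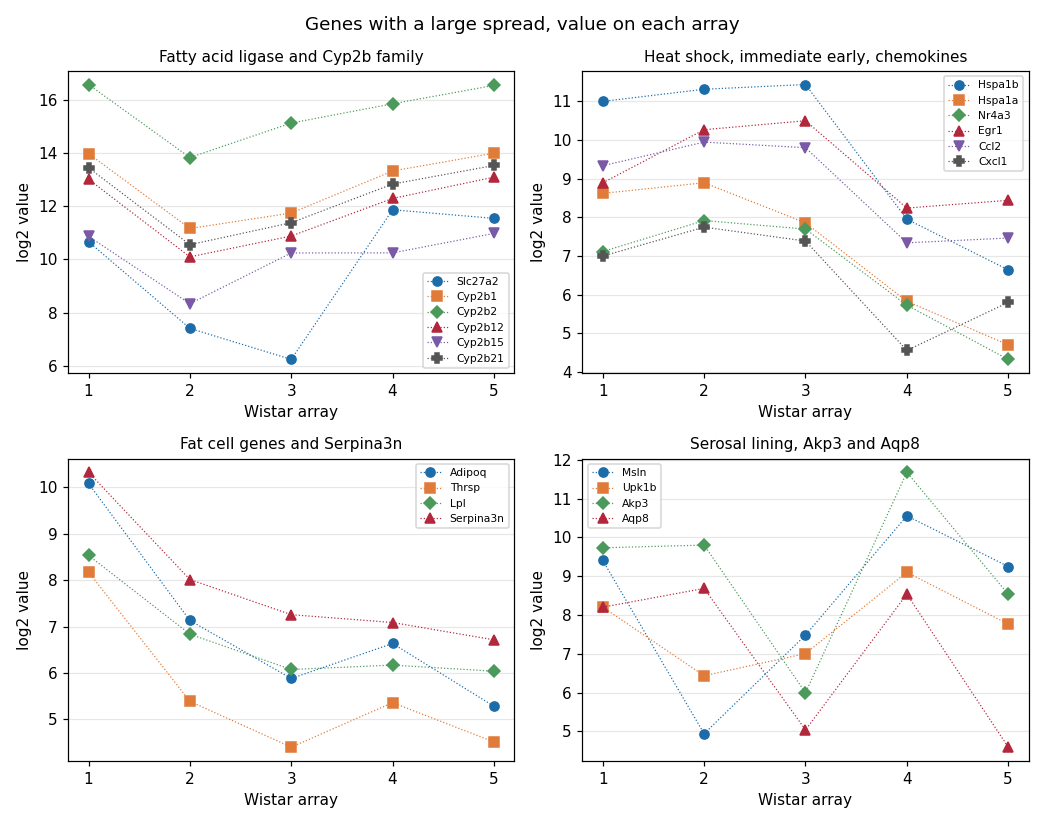
Log2 value (y axis) on Wistar arrays 1 to 5 (x axis) for 4 sets of genes with a large SD, 1 marker per gene, the dotted lines joining values of a gene without implying order. The Cyp2b genes are lowest on array 2, Hspa1a, Hspa1b and Ccl2 are lower on arrays 4 and 5 than on the others, and fat cell genes are highest on array 1.

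The remaining genes of the 30 most variable were high on a single array. The 30th gene, Tppp, had an SD of 1.23 and the next gene, left out of the set, 1.22. Hint3, Eogt, Fgf12 and Prok1 were high on Wistar 5, as with Fgf12, a growth factor homolog, at 4.16, 4.30, 4.46, 3.83 and 7.26. Iqcg and the olfactory receptor Or5h27b were high on Wistar 2. Mpo, the myeloperoxidase of neutrophils, read 5.92, 5.62, 8.35, 5.09 and 5.13, and Tppp, a tubulin-binding protein, read 5.38, 5.59, 8.15, 5.13 and 5.62. Cldn6, a claudin, was also high on Wistar 3, at 6.72 against 3.69 to 4.25. For Mpo, Tppp and Cldn6 the SD fell to 0.40, 0.23 and 0.27 without Wistar 3, and each of the other 27 genes kept an SD of at least 1.

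Whole lists also shifted between arrays, by less than the genes above. On Wistar 3 the myeloid list lay on average 0.38 above its gene means and MHC class II 0.33 above, while the shift of epithelial structure genes was -0.30. All 6 ranked MHC class II members were highest on that array, which was the highest for 33.4% of all ranked genes. Other lists rose or fell there too, the ileum list by 0.29 and the brush border enzymes by -0.46. Among lists chosen after values were seen, chemokines and cytokines shifted by 0.52 and 0.48 on Wistar 2 and 3 and by -0.67 and -0.56 on Wistar 4 and 5. That list holds Ccl2, Cxcl1 and Ccl7, so its shift partly restates values shown above. Of its 10 ranked members, 4 were highest on Wistar 2, 3 on Wistar 3, 2 on Wistar 5 and 1 on Wistar 1. Acute phase genes and serpins, which include Serpina3n and Cfb shown above, shifted by 0.46 on Wistar 1 and -0.56 on Wistar 3. The mesothelium list shifted by 0.77 on Wistar 4 and -0.78 on Wistar 2, over 4 ranked members that did not share a direction. Tnf and Lbp of these lists were detected on no array. For ribosomal proteins and oxidative phosphorylation the largest shifts on any array were 0.034 and 0.048.

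**Figure D5:**
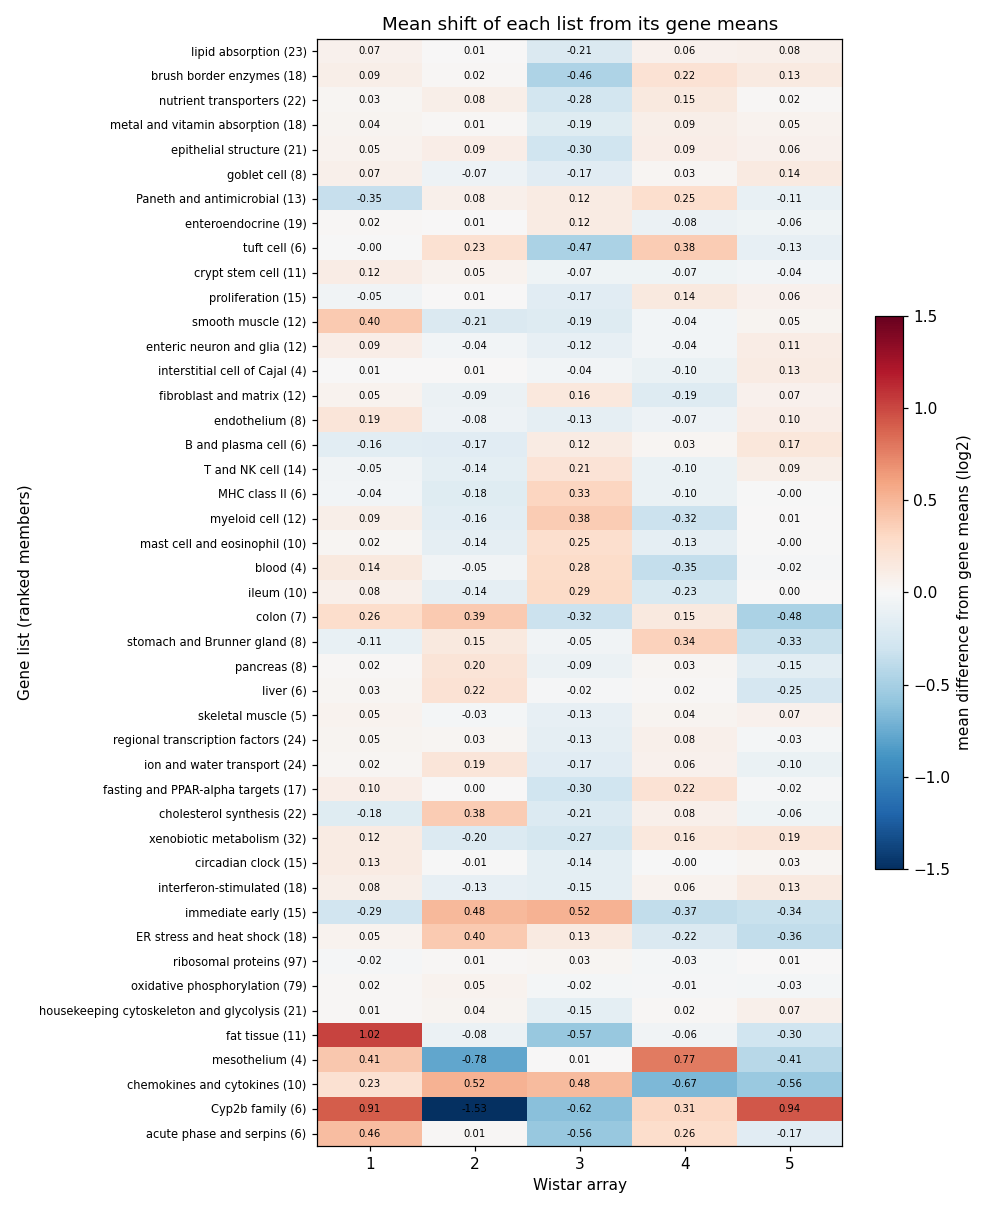
Mean difference of each list's ranked members from their gene means (colour and number, log2) on Wistar arrays 1 to 5 (x axis), for lists with at least 4 ranked members (y axis, number in brackets), the last 5 lists chosen after values were seen. The Cyp2b family ranges from -1.53 on array 2 to 0.94 on array 5, and the largest shift of ribosomal proteins is 0.034, on array 3.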

How the data were processed

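Total RNA of 5 Wistar intestinal samples was hybridised to Agilent 1-colour rat arrays and scanned by the authors with Feature Extraction 10.7 (10.7.3.1 per the file headers), and the authors quantile-normalized all 15 arrays in GeneSpring. The log2 values deposited by the authors in the series matrix gave every level. The spot intensity values deposited in the scanner files gave detection calls, flags and alternatives, and their order matched the log2 values of the same array (Spearman 0.9999 after rounding). Of the other groups' arrays only the slide was read. GEO's labels number the samples and the methods state that RNA was extracted from each individually.

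Of 41012 probes that are no controls, 22503 carried a gene name. Names were updated to RefSeq symbols, 17541 by accession, 3098 by symbol and 539 by synonym, and 1325 were kept as in the file. Probes with repeat spots were detected where at least 0.5 of the spots were. Single spots marked nonuniform were left out (15 named probes, 6 genes lost). The brightest remaining probe stood for a gene. No group was compared, and the single test was Dixon's limit for an array standing apart from the other 4. The number of arrays limits the precision of every SD.

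The rule for naming took the 30 brightest genes, the 30 with the largest and 5 with the smallest SD, and, of 40 gene lists, the brightest 3 ranked members, members among the 100 brightest, undetected members and defining markers, long lists being summarised by counts. Other genes and 5 further lists were chosen after their values were seen. Members and lists were chosen with earlier results of these data known. Alternatives used the 75th percentile, quantile normalization over the 5 arrays, or normexp with an offset of 50 (limma 3.58.1, R 4.3.3), other detection rules, the median over probes, and each array left out. Python 3.11.15 and pandas 2.3.3 were used, and the scripts were tested on simulated data. A few list members are not reported here.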

Additional observations from a re-analysis of the deposited data

Results flagged for a closer look

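Of 116 genes named with values, 22 had 1 array whose gap to the nearest other array took up more than 0.71 of the range of all 5, where chance alone does this in about 1 in 20 groups. That rate does not apply to the count, since 11 of the 22 are among the 30 genes chosen for the largest SD over these same values. Wistar 1 lay above the other arrays for Tpm2 (0.759), Myl9 (0.904) and Thrsp (0.738). Wistar 2 lay above the other arrays for Iqcg (0.778) and Or5h27b (0.718). Wistar 2 lay below the other arrays for Cyp2b15 (0.722). Wistar 3 lay above the other arrays for RatNP-3b (0.858), Slc5a1 (0.758), Mpo (0.745), Cldn6 (0.815) and Tppp (0.837). Wistar 3 lay below the other arrays for Guca2b (0.715), Anpep (0.888), Lct (0.787) and Acadm (0.733). Wistar 4 lay below the other arrays for Apoa4 (1.000) and Gcg (0.738). Wistar 5 lay above the other arrays for Hint3 (0.786), Eogt (0.844), Fgf12 (0.816) and Prok1 (0.738). Wistar 5 lay below the other arrays for Medag (0.806). The number in brackets is the share of the range taken by that gap. For Apoa4 the range was small, 18.33 to 18.47, and its repeated value was set by the normalization. Wistar 3 held 5 high and 4 low values of the 22, and over all ranked genes 1824 (14.5%) passed the same limit, 531 with Wistar 3 high and 977 with Wistar 3 low. Outside the named genes, 10212 probes without a gene name here were well above background on all 5 arrays, and 27 of them were among the 100 brightest probes. Of the 15 named probes with a nonuniform spot, the largest jumps were for Ankrd13c, at 17.85 on Wistar 4 against 6.42 to 7.43 on the others, and Lnx1, at 14.71 on Wistar 2 against 4.60 to 5.63.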

How the results depend on the processing

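The number of list genes among the 100 brightest stayed between 74 and 77 of 100 under all alternatives, and Apoa4 stayed first in each. The count of genes with an SD of at least 1 depended on the treatment of dim signal: it was 63 as reported, 11 with normexp, 108 with detection on at least 4 arrays, 517 with no filter on dim probes and 27 when the SD was taken above that of the 200 genes nearest in level. The median SD was 0.21 as reported and 0.11 with normexp. Undetected list genes numbered 37 by the call used and 12 where a gene had to fail the scanner's weaker test of a positive and significant signal on every array. With 1 array left out in turn, 12554 to 12791 genes were ranked, 75 to 77 of the 100 brightest were list genes, 38 to 45 list genes were undetected, 59 to 85 genes had an SD of at least 1 and the median SD was 0.14 to 0.22, the lowest without Wistar 3. Keeping the nonuniform spots, an alternative chosen after seeing the data, gave 67 genes with an SD of at least 1. Ranks of the 30 brightest genes moved by more than their spread over arrays for 1 gene with the 75th percentile, 0 with quantile normalization over the 5 arrays, 18 with normexp and 13 with the median over probes. No paired analysis was possible because no groups were compared. Dim genes had the larger spread, with a median SD of 0.28 for a mean under 6 and 0.09 for a mean of at least 16. Of the 30 most variable genes, 21 had a mean under 8, so that their spread depends on how signal near background is treated.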
